A study of Saccharomyces cerevisiae with 8 samples.

Results

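Translation elongation in budding yeast is carried out by a small set of factors, most of them encoded by a pair of duplicated genes. The 10 genes described here are YEF3 (YLR249W) and HEF3 (YNL014W) for elongation factor 3, TEF1 (YPR080W) and TEF2 (YBR118W) for eEF1A, EFB1 (YAL003W) and TEF4 (YKL081W) for subunits of eEF1B, EFT1 (YOR133W) and EFT2 (YDR385W) for eEF2, and HYP2 (YEL034W) and ANB1 (YJR047C) for eIF5A. They are 10 of the 6713 targets in the deposited tables. They were chosen by their role in elongation, to compare the use of paralogs between media and states, and the choice was made with values of these libraries known. The differences between media and states below are therefore a description of these genes.

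The data are 8 poly(A) RNA libraries of BY4743, a diploid laboratory strain of Saccharomyces cerevisiae, whose genotype the labels give as wild-type. Each of 4 groups holds 2 libraries: cured SPO, prion SPO, cured preSPO and prion preSPO. Prion libraries come from untreated cells with the natural [SMAUG+] element (natSMAUG+ in the labels), a self-propagating state of the RNA-binding protein Vts1, and cured libraries from cells in which that element was selectively removed. A 10 ml culture was grown in preSPO medium to saturation for 48 h, 5 ml was harvested, and the remaining 5 ml was kept for 14 h in SPO, a sporulation medium. A library of a whole culture averages over sporulating and other cells, so fewer cells with a transcript and less of it per cell cannot be told apart.

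The estimated counts summed to between 4650288 and 71684771 per library. MET17, a methionine biosynthesis gene that sets the cured and prion preSPO libraries apart, went against the state labels in SPO medium, with 447 and 13 counts in cured SPO replicates 1 and 2 and 1363 and 1 counts in prion SPO replicates 1 and 2, against 0 and 1 counts in cured preSPO and 3207 and 3867 counts in prion preSPO. The libraries labelled cured SPO replicate 1 and prion SPO replicate 2 are therefore in doubt. This bears on comparisons of states in SPO medium, on responses to the medium within each state and on differences between these responses. Some results are also given without these 2 libraries. The labels name no difference in genotype between the states. Whether the cells also differ at the MET17 locus was not tested, and this could not be told apart from an effect of the element. TAR1, a reading frame within the ribosomal DNA, took 7.35% to 20.7% of TPM (a level scaled for target length and library) and more in each SPO library than in any preSPO library. The summed TPM of 8 sporulation genes lay between 364 and 1064 in SPO libraries and between 37.7 and 49.6 in preSPO libraries. Most of the SPO sum was SPS100, at 317 to 996 TPM against 3.74 to 4.80 TPM in preSPO libraries. IME1 was also higher in every SPO library (27.7 to 69.5 against 7.61 to 11.4 TPM). IME2, NDT80, SPS1, SPO11 and HOP1 overlapped between media, and SSP1 was lower in every SPO library (4.44 to 6.54 against 6.73 to 9.63 TPM). The summed TPM of 12 haploid-specific genes, which diploids repress, lay between 76.7 and 104 in SPO libraries and between 67.6 and 119 in preSPO libraries. MFA1, 1 of them, was at 0 throughout. With TMM scaling, 6 of the 10 tested were called higher in cured SPO and 5 in prion SPO cells, beside 1816 and 1660 of all 6346 genes. On log2(TPM + 1) the counts were 2 and 1, beside 546 and 681 of all 6389 genes. The part of these differences in the results below was not tested.

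During elongation, eEF1A brings each aminoacyl-tRNA to the ribosome as a GTP complex, eEF1B exchanges the GDP left on eEF1A, and eEF2 drives translocation of the tRNAs and mRNA. Fungi need a further ATPase, eEF3, which acts late in translocation and in the release of the spent tRNA. eIF5A, which carries the unusual amino acid hypusine, relieves ribosomes that stall at difficult sequences such as proline runs and also acts in termination. In yeast YEF3 is the eEF3 gene of growing cells and HEF3 its little expressed copy, while HYP2 is the aerobic and ANB1 the hypoxic eIF5A gene.

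How well reads can tell the copies apart differs between pairs, and the start of each coding sequence shows this for the diverged ones. HEF3 and YEF3 are both 3135 bases long and identical at 74.6% of positions, which leaves 875 of 1044 residues the same. Of the 31-base words of HEF3, 99.5% do not occur in YEF3. The first 90 coding bases of each gene (R64, HEF3 at chrXIV:606319-606408 and YEF3 at chrXII:636780-636869, both on the plus strand) are given 5′ to 3′ with the 29 differing bases in capitals.
HEF3: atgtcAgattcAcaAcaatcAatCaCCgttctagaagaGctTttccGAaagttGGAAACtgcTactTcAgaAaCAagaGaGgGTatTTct
YEF3: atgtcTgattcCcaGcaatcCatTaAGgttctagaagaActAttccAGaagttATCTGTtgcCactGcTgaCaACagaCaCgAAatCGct
ANB1 and HYP2 are closer, with 90.9% identical bases over 474 and 142 of 157 residues the same. Their first 90 bases (ANB1 at chrX:525292-525381 on the minus strand, HYP2 at chrV:85676-85765 on the plus strand) differ at the 4 capitals.
ANB1: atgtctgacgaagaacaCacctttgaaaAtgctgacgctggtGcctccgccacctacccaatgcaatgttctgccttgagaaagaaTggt
HYP2: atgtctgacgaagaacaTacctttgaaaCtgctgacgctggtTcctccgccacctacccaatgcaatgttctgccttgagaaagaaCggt

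The eEF1A and eEF2 pairs encode identical proteins and are nearly identical in their coding bases. TEF2 and TEF1 differ at 2 of 1377 positions, C762T and C834T, counted from 1 at the A of the start codon with the TEF2 base first. EFT2 and EFT1 differ at 4 of 2529 positions, G447A, T882C, T2145C and T2364C, with the EFT2 base first. Only 62 of the 1347 words of 31 bases in TEF2 (4.60%) and 124 of the 2499 in EFT2 (4.96%) are absent from the partner, so the division of these counts is an estimate and both genes of each pair are uncertain on their own. The 31-base stretches below carry both TEF differences and the first EFT difference in capitals, centred at chrII:478432 and chrII:478504 for TEF2, chrXVI:701355 and chrXVI:701427 for TEF1, chrIV:1243676 for EFT2 and chrXV:575544 for EFT1, all on the plus strand of R64.
TEF2 at 762: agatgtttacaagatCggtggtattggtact
TEF1 at 762: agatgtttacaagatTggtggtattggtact
TEF2 at 834: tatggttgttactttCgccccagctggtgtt
TEF1 at 834: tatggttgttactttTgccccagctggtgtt
EFT2 at 447: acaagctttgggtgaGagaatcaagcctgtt
EFT1 at 447: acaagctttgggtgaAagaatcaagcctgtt

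The eEF3 genes changed places between media. In SPO medium HEF3 was the more abundant copy in all 4 libraries, and in preSPO medium YEF3 was, by a wide margin. HEF3 (chromosome XIV, 606319 to 609453) stood at 70.7 and 37.8 TPM in cured SPO and 65.7 and 65.2 TPM in prion SPO, against 2.30 and 2.39 TPM in cured preSPO and 2.11 and 2.03 TPM in prion preSPO. The media did not overlap, and the preSPO values lay within a narrow range of each other. YEF3 (chromosome XII, 636780 to 639914) stood at 36.8 and 25.3 TPM in cured SPO and 29.4 and 23.9 TPM in prion SPO, against 261 and 157 TPM in cured preSPO and 326 and 180 TPM in prion preSPO. Here every SPO library was below every preSPO library, and in preSPO medium replicate 1 was the higher one in both states. Both genes together gave 107, 63.0, 95.1 and 89.2 TPM in the SPO libraries and 263, 160, 328 and 182 TPM in the preSPO libraries, in the same order of groups.

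In edgeR's quasi-likelihood test with Benjamini-Hochberg adjustment over 6346 genes, the log2 fold change (SPO minus preSPO) of HEF3 was 5.44 ± 0.25 (SE) in cured cells and 5.60 ± 0.25 in prion cells, or 43.5-fold and 48.5-fold. These folds are for TMM scaling and are smaller on TPM. There the means were 54.2 in SPO against 2.34 in preSPO for cured cells and 65.5 against 2.07 for prion cells. HEF3 ranked 61st and 63rd from the highest fold change among the genes tested. YEF3 had a log2 fold change of -1.77 ± 0.27 in cured cells and -2.59 ± 0.27 in prion cells, ranking 331st and 98th from the lowest. Of the 9 genes that could be tested, 4 (HEF3, EFB1, EFT1 and EFT2) were called higher and 2 (YEF3 and TEF1) lower in cured cells at an adjusted p under 0.05, where 57.2% of all genes tested were called. In prion cells 2 (HEF3 and EFT2) were called higher and 4 (YEF3, TEF1, TEF4 and ANB1) lower, against 53.3% of all genes, and over both states 4 and 3, against 68.2%. The members' counts are given beside that background and nothing is read from them.

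**Figure D1:**
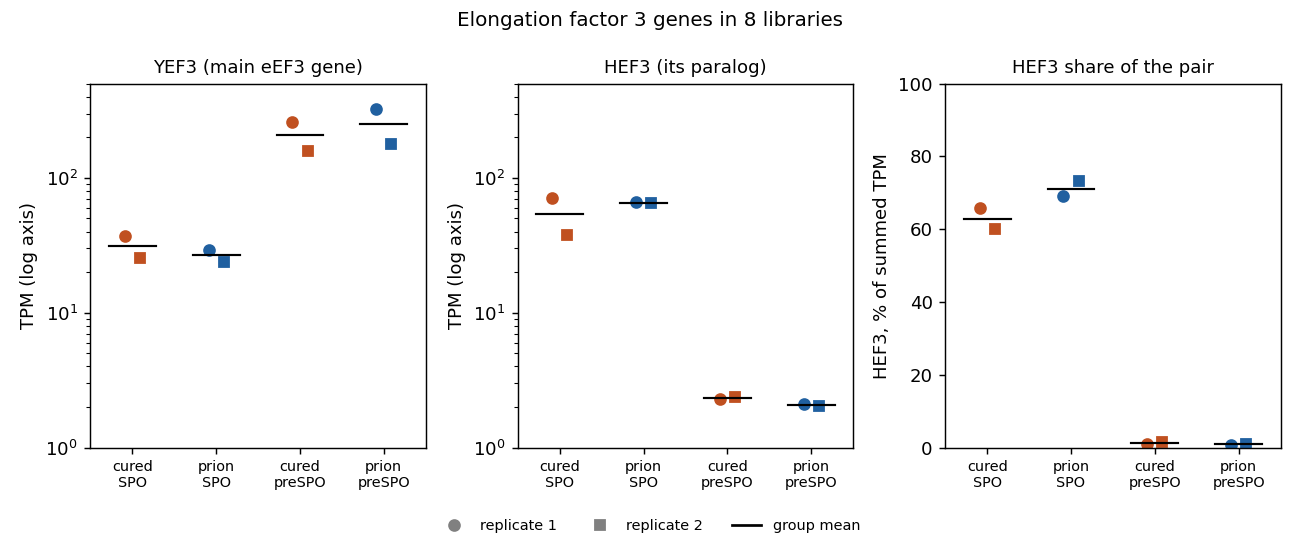
TPM of YEF3 and HEF3 (log axes) and the share of HEF3 in their summed TPM (percent, linear axis from 0) in each of the 8 libraries, with cured in orange, prion in blue, circles for replicate 1, squares for replicate 2 and a line at the mean of each group. HEF3 held 59.9% to 73.1% of the pair in SPO libraries and 0.644% to 1.5% in preSPO libraries.

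As a share of the summed TPM of the pair, which does not depend on how libraries are scaled against each other, HEF3 made up 65.8% and 59.9% in cured SPO and 69.1% and 73.1% in prion SPO. It made up 0.872% and 1.5% in cured preSPO and 0.644% and 1.12% in prion preSPO. The mean was 67.0% ± 5.59 (SD, n = 4) in SPO medium and 1.03% ± 0.364 (SD, n = 4) in preSPO medium. The counts behind the lowest preSPO share were 88 of 13651, with a 95% Wilson interval of 0.524% to 0.793% for the share of counts, and those behind the lowest SPO share were 27746 of 46294, with an interval of 59.5% to 60.4%. These intervals cover counting error only. On the log2 ratio of TPM + 1, the media differed by 7.13 over both states, beside a pooled SD of 0.43 between replicates.

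An unnamed reading frame, YNL013C (chromosome XIV, 609133 to 609510, minus strand), lies across the last 321 bases of HEF3, 10.2% of its length. It held many counts that may be of either target, since no source used here gives the strand setting. Its counts were 23.9%, 70.7%, 45.3% and 49.8% of those of HEF3 in the SPO libraries and 25.5%, 39.5%, 9.25% and 37.8% in the preSPO libraries, each in the order cured 1, cured 2, prion 1 and prion 2. With its counts added to HEF3, the share of HEF3 in the counts of the pair was 70.4%, 71.9%, 76.5% and 80.3% in SPO libraries and 1.09%, 2.07%, 0.703% and 1.53% in preSPO libraries, so the reversal of the pair was as large with them.

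The eEF1A genes were the most abundant of the set in preSPO medium, and TEF1 gave way to TEF2 as the larger estimate in SPO medium. TEF1 (chromosome XVI, 700594 to 701970) stood at 675 and 383 TPM in cured SPO and 577 and 412 TPM in prion SPO, against 1896 and 1678 TPM in cured preSPO and 1915 and 1370 TPM in prion preSPO. TEF2 (chromosome II, 477671 to 479047) stood at 1160 and 632 TPM in cured SPO and 1056 and 769 TPM in prion SPO, against 1591 and 1458 TPM in cured preSPO and 1467 and 1280 TPM in prion preSPO. On this scale both genes were lower in every SPO library, TEF1 by the larger factor. TEF2 made up 63.2% and 62.2% of the pair in cured SPO and 64.7% and 65.2% in prion SPO, against 45.6% and 46.5% in cured preSPO and 43.4% and 48.3% in prion preSPO. TEF2 was thus the larger estimate in all SPO libraries and the smaller one in all preSPO libraries.

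By edgeR, TEF1 fell in SPO medium by 0.82 ± 0.26 (SE) on the log2 scale in cured cells and by 1.11 ± 0.26 in prion cells, and both calls were lost without the libraries labelled cured SPO replicate 1 and prion SPO replicate 2. TEF2 was not called, with log2 fold changes of 0.16 ± 0.27 and 0.02 ± 0.27 after TMM scaling, but it had -0.83 and -0.60 on the log2(TPM + 1) scale, where limma called it lower in cured cells (adjusted p 0.0141) and not in prion cells. Counted as one gene, which needs no division of shared reads, TEF1 and TEF2 had log2 fold changes of -0.28 ± 0.30 and -0.48 ± 0.30 and were not called.

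TMM scaling sets the median gene near 0 and TPM does not, which matters for every modest change here and for the size of the large ones. The median log2 fold change of all genes tested was 0.03 in cured and 0.00 in prion cells with TMM, -0.37 and -0.17 with scaling to library size, and -0.88 and -0.56 on log2(TPM + 1). The share of calls that were higher in SPO medium was 50.0% and 49.1% with TMM, 30.2% and 38.9% with library size, and 13.7% and 21.6% on log2(TPM + 1), where limma called 62.6% and 49.4% of all genes. On that last scale 1 of the 9 genes (HEF3) was called higher and 5 lower in cured cells (YEF3, TEF1, TEF2, TEF4 and ANB1), and 1 higher and 4 lower in prion cells, without TEF2. HEF3, YEF3, TEF1, ANB1 and CAM1 kept their direction in both states on all 3 scales. The calls of TEF1 in both states, of EFB1 in cured cells and of TEF4 and EFT2 in prion cells were lost when certain single libraries were left out, among them prion SPO replicate 2 for the prion values (TEF1 -0.98, TEF4 -0.45, EFT2 0.53) and cured preSPO replicate 2 for the cured values (TEF1 -0.79, EFB1 0.60).

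The genes of eEF2, the translocase, overlapped between media in TPM, and EFT2 was higher in SPO medium relative to the median gene. EFT2 (chromosome IV, 1243230 to 1245758) stood at 125 and 71.7 TPM in cured SPO and 96.5 and 82.0 TPM in prion SPO, against 79.5 and 62.1 TPM in cured preSPO and 108 and 84.4 TPM in prion preSPO. EFT1 (chromosome XV, 575098 to 577626) stood at 49.2 and 27.0 TPM in cured SPO and 36.9 and 33.3 TPM in prion SPO, against 42.9 and 38.6 TPM in cured preSPO and 61.4 and 52.7 TPM in prion preSPO. The media overlapped for both genes. EFT2 made up 71.8% and 72.7% of the pair in cured SPO and 72.3% and 71.1% in prion SPO, against 65.0% and 61.6% in cured preSPO and 63.7% and 61.6% in prion preSPO, a small shift towards the copy that led in both media.

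By edgeR, EFT2 rose by 1.42 ± 0.19 (SE) in cured cells and by 0.52 ± 0.19 in prion cells on the log2 scale with TMM, but had 0.43 and -0.10 on log2(TPM + 1) and was called in neither state there. EFT1 rose by 0.83 ± 0.17 in cured cells, a value that was -0.15 on log2(TPM + 1), and was not called in prion cells, where its log2 fold change was -0.08 ± 0.17. Counted as one gene, EFT1 and EFT2 had a log2 fold change of 1.23 ± 0.20 in cured cells, which was called, and of 0.32 ± 0.19 in prion cells, which was not. The difference between the states in this response is given with the comparison of states.

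**Figure D2:**
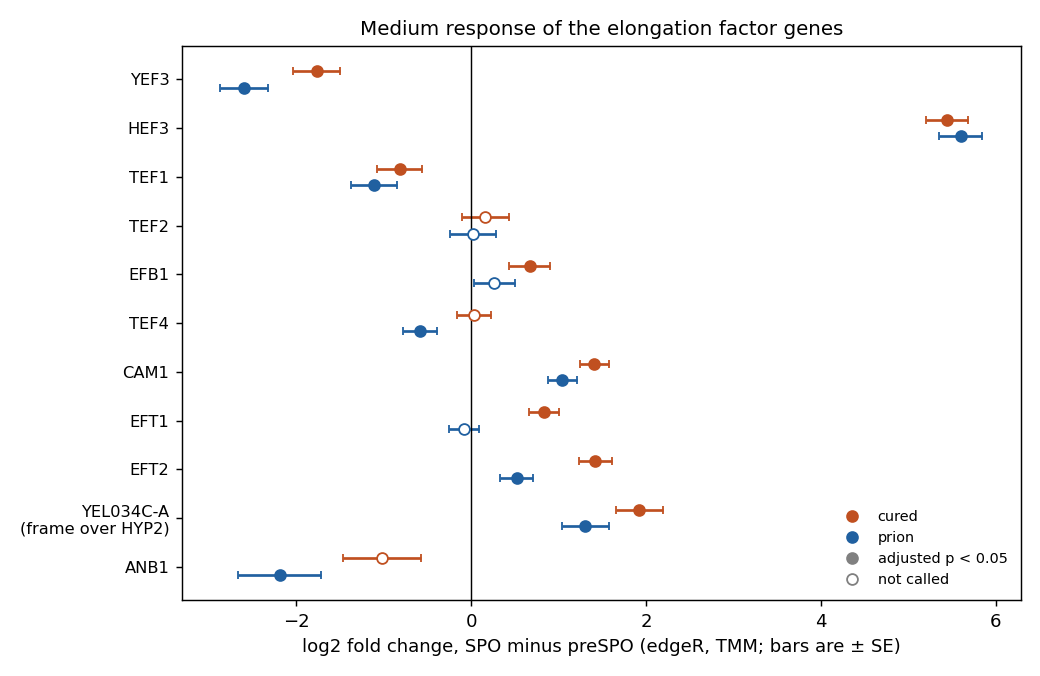
Log2 fold change (SPO minus preSPO, edgeR with TMM, bars ± SE) of each gene in cured (orange) and prion (blue) cells, filled where the adjusted p was under 0.05. HEF3 stands alone near 5.5 while YEF3, TEF1 and ANB1 lie left of 0.

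Among the subunits of eEF1B, the exchange factor of eEF1A, the γ subunit genes CAM1 and TEF4 shifted in their shares, and the catalytic subunit gene EFB1 overlapped between media. EFB1 (chromosome I, 142174 to 143160) stood at 637 and 308 TPM in cured SPO and 631 and 431 TPM in prion SPO, against 636 and 487 TPM in cured preSPO and 801 and 561 TPM in prion preSPO, with replicate 1 the higher library in each group. Its log2 fold change by edgeR was 0.67 ± 0.23 (SE) in cured cells, which was called, and 0.26 ± 0.23 in prion cells, which was not, and both were below 0 on log2(TPM + 1), at -0.33 and -0.36. TEF4 (chromosome XI, 282891 to 284455) stood at 38.1 and 22.2 TPM in cured SPO and 38.1 and 26.9 TPM in prion SPO, against 54.1 and 57.9 TPM in cured preSPO and 76.5 and 71.3 TPM in prion preSPO. It fell by 0.58 ± 0.19 in prion cells on the log2 scale and in cured cells had 0.03 ± 0.19 by TMM, which was not called, and -0.92 on log2(TPM + 1), which limma called (adjusted p 0.0136).

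CAM1 (YPL048W), the second gene for the γ subunit, was not among the 10 genes and is given to complete the pair. It stood at 118 and 78.4 TPM in cured SPO and 116 and 101 TPM in prion SPO, against 76.7 and 67.6 TPM in cured preSPO and 85.5 and 76.1 TPM in prion preSPO. Its log2 fold change was 1.41 ± 0.17 (SE) in cured cells and 1.04 ± 0.16 in prion cells, called in both with TMM but not on log2(TPM + 1), where it was 0.41 and 0.42. CAM1 made up 75.6% and 77.9% of the summed TPM of CAM1 and TEF4 in cured SPO and 75.2% and 79.1% in prion SPO, against 58.6% and 53.8% in cured preSPO and 52.8% and 51.6% in prion preSPO. Only 68.6% of aligned bases are identical between these coding sequences, so little of their reads can be shared.

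**Figure D3:**
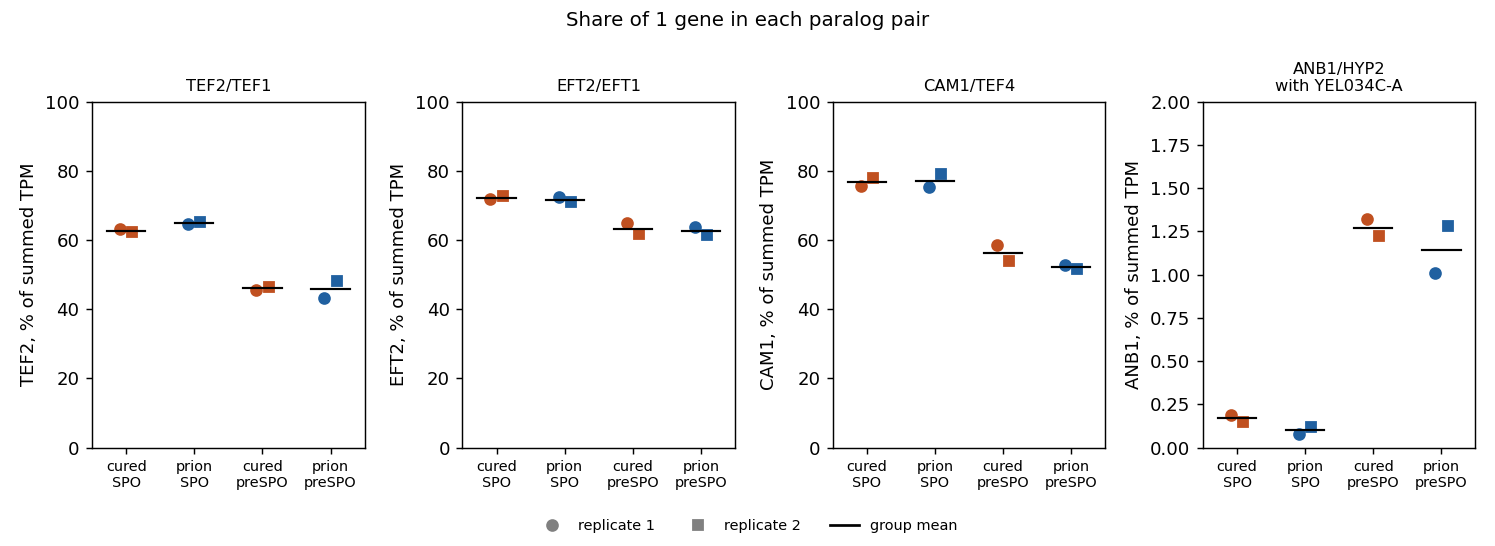
Share of the first-named gene in the summed TPM of each pair (percent) in the 8 libraries, with cured in orange, prion in blue, circles for replicate 1, squares for replicate 2 and a line at the group mean. The vertical axis of ANB1 ends at 2%, that of the others at 100%. TEF2, EFT2 and CAM1 held larger shares in all SPO libraries than in any preSPO library, and ANB1 a smaller one.

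For eIF5A, the hypoxic copy ANB1 was scarce in both media and scarcer in SPO medium. ANB1 (chromosome X, 524908 to 525381) stood at 1.93 and 1.35 TPM in cured SPO and 0.806 and 1.17 TPM in prion SPO, against 5.91 and 6.91 TPM in cured preSPO and 6.58 and 7.57 TPM in prion preSPO. No SPO library reached the lowest preSPO library. These levels rest on few reads, with 8, 105, 7 and 17 estimated counts in the SPO libraries and 23, 103, 29 and 55 in the preSPO libraries. ANB1 fell by 2.19 ± 0.47 (SE) on the log2 scale in prion cells, while in cured cells the log2 fold change was -1.01 ± 0.45, with an edgeR adjusted p of 0.0801 after TMM scaling and 0.0249 with scaling to library size.

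HYP2 (chromosome V, 85676 to 86149) was listed at 0 in all 8 libraries and could not be tested. All of its 474 bases lie within the 603-base target YEL034C-A (85613 to 86215, minus strand), an unnamed reading frame on the opposite strand, which held the reads of the locus. YEL034C-A stood at 1016 and 902 TPM in cured SPO and 1010 and 967 TPM in prion SPO, against 441 and 558 TPM in cured preSPO and 646 and 582 TPM in prion preSPO. All SPO libraries were above all preSPO libraries, and the log2 fold change was 1.93 ± 0.27 (SE) in cured cells and 1.31 ± 0.27 in prion cells, called in both. Whether these reads come from HYP2 mRNA or from the opposite strand cannot be told apart in these tables, so the values are those of the locus. ANB1 made up 0.190% and 0.150% of the summed TPM of ANB1 and this target in cured SPO and 0.0797% and 0.121% in prion SPO, against 1.32% and 1.22% in cured preSPO and 1.01% and 1.28% in prion preSPO.

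**Figure D4:**
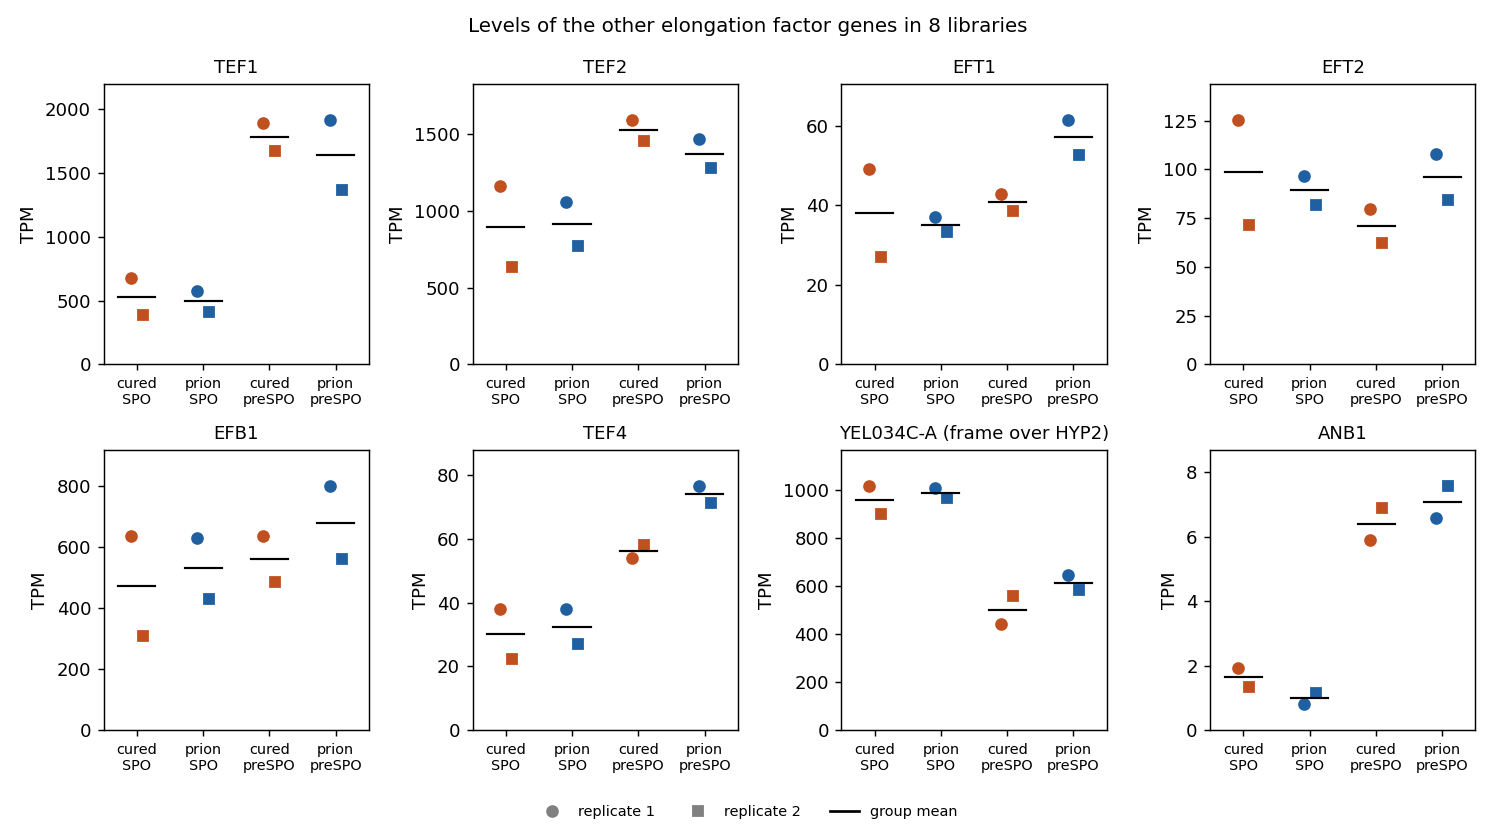
TPM of TEF1, TEF2, EFT1, EFT2, EFB1, TEF4, YEL034C-A (the target that contains HYP2) and ANB1 in the 8 libraries, each on its own axis from 0, with cured in orange, prion in blue, circles for replicate 1, squares for replicate 2 and a line at the group mean. TEF1, TEF2, TEF4 and ANB1 were lower in every SPO library than in any preSPO library, YEL034C-A was higher, and EFB1, EFT1 and EFT2 overlapped between media.

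Rox1 is the repressor that keeps ANB1 off in the presence of oxygen. The core of its recognition site, ATTGTT, searched on both strands in the 300 bases before the start codon, occurred 3 times before ANB1 and once each before HEF3, YEF3 and EFB1, and not before the other members. Of 6026 such windows in the genome 34.1% held at least 1 match and 1.04% held 3 or more. The 121 bases from -300 to -180 of the ANB1 start codon (R64, chrX:525561-525681, minus strand) hold all 3 matches, in capitals.
ANB1 upstream: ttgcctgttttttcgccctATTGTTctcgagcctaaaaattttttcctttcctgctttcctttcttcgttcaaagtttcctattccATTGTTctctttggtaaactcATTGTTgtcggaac

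eIF5A is active only after 2 enzymes, Dys1 and then Lia1, have built hypusine on it. DYS1 stood at 16.6 and 12.0 TPM in cured SPO and 16.6 and 11.4 TPM in prion SPO, against 177 and 228 TPM in cured preSPO and 170 and 109 TPM in prion preSPO, without overlap. It fell by 2.87 ± 0.26 (SE) and 2.69 ± 0.26 on the log2 scale in cured and prion cells. LIA1 ranged from 6.09 to 10.4 TPM in SPO libraries and from 9.47 to 13.4 TPM in preSPO libraries and was not called, with log2 fold changes of 0.44 ± 0.24 in cured cells, which was -0.47 on log2(TPM + 1), and of -0.00 ± 0.24 in prion cells.

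Ordered by level, TEF1 and TEF2 led in preSPO medium, at 1715 ± 254 and 1449 ± 128 TPM (SD, n = 4), a gap of about the spread between libraries, followed by EFB1 at 621 ± 134 TPM and YEF3 at 231 ± 77.2 TPM. EFT2 at 83.4 ± 18.8, TEF4 at 64.9 ± 10.6 and EFT1 at 48.9 ± 10.2 TPM came next, then ANB1 at 6.74 ± 0.692 and HEF3 at 2.21 ± 0.166 TPM. EFT2 and TEF4 differed by about the spread of EFT2. Within every preSPO library EFT2 lay above TEF4 and TEF4 above EFT1. In SPO medium the order was TEF2 at 904 ± 245 TPM, then TEF1 and EFB1 at 512 ± 138 and 501 ± 161 TPM, which do not differ beyond their spread, and then EFT2 at 93.9 ± 23.3 TPM. HEF3 at 59.9 ± 14.9 TPM followed, above EFT1 at 36.6 ± 9.36, TEF4 at 31.3 ± 8.03 and YEF3 at 28.8 ± 5.78 TPM, and ANB1 was lowest at 1.31 ± 0.471 TPM. EFT1, TEF4 and YEF3 were within each other's spread, though EFT1 lay above YEF3 in every SPO library. HEF3 thus stood last of the 9 counted genes in preSPO medium and above EFT1, TEF4, YEF3 and ANB1 in SPO medium. This order leaves out the HYP2 locus, whose target YEL034C-A stood at 974 ± 52.5 TPM in SPO and 557 ± 85.6 TPM in preSPO medium. It also leaves out YNL013C, which overlaps HEF3 and stood at 229 to 442 TPM in SPO libraries. Its counts may be of either target, so the rank of HEF3 below EFT2 in SPO medium is not settled. On CPM with TMM scaling, 5 of the 9 tested genes (YEF3, HEF3, TEF1, EFT2 and ANB1) did not overlap between media, where 58.7% of all genes tested did not.

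Other parts of the translation machinery mostly fell in SPO medium. Among all 6346 genes tested, 1816 were called higher and 1817 lower in cured cells, and 1660 and 1720 in prion cells, with TMM. Of 137 tested cytosolic ribosomal protein genes, 7 were called higher and 85 lower in cured cells and 3 and 100 in prion cells, with median log2 fold changes of -0.81 and -1.02. Of 25 initiation factor genes, 1 was called higher and 17 lower in cured cells, and none higher and 16 lower in prion cells, with medians of -0.87 and -0.93. SUI2, the α subunit of eIF2, fell by 1.78 ± 0.21 (SE) and 2.27 ± 0.22 on the log2 scale in cured and prion cells, and TIF4632, an eIF4G gene, by 1.26 ± 0.15 and 1.40 ± 0.16. All 6 genes of termination and ribosome rescue were called lower in both states, with medians of -1.53 and -1.55. Among them SUP45, the release factor eRF1, fell by 1.49 ± 0.22 and 1.77 ± 0.22, and DOM34, which acts on stalled ribosomes, by 1.58 ± 0.23 and 1.53 ± 0.22. The medians of these lists were further below 0 under library size and TPM scaling in both states. Medians of all genes tested stood at 0.03 and 0.00 with TMM in cured and prion cells. They too were lower with library size (-0.37 and -0.17) and on log2(TPM + 1) (-0.88 and -0.56).

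The genes that assist or modify the elongation factors were mixed. Beside them, 57.2% of all genes tested were called in cured cells and 53.3% in prion cells with TMM. On log2(TPM + 1) these shares were 62.6% and 49.4%. Among 5 partners and related ATPases, GCN20, which works with the eEF3-like protein Gcn1, fell by 1.09 ± 0.22 (SE) and 1.74 ± 0.23 on the log2 scale in cured and prion cells, and NEW1, an ATPase related to eEF3, fell by 1.38 ± 0.28 and 2.0 ± 0.28. STM1, a ribosome preservation factor, rose by 0.79 ± 0.20 in cured cells with TMM but had -0.20 on log2(TPM + 1), and was not called in prion cells at -0.19 ± 0.20. Of 7 genes for diphthamide, the modified histidine of eEF2, 2 were called higher and 3 lower in cured cells and 1 and 3 in prion cells with TMM, against 0 and 5 and 0 and 3 on log2(TPM + 1). DPH5 rose by 0.98 ± 0.19 and 1.14 ± 0.19 with TMM, values that were 0.015 and 0.51 on log2(TPM + 1), and DPH6, the last enzyme of the pathway, fell by 1.52 ± 0.22 and 1.32 ± 0.22. Of 7 methyltransferases of elongation factors, 2 were called higher and 4 lower in cured cells and 2 and 3 in prion cells with TMM, against 1 and 5 and 1 and 3 on log2(TPM + 1). EFM3, which methylates eEF2, rose by 2.28 ± 0.31 and 2.44 ± 0.32, and EFM6, which methylates eEF1A, fell by 3.31 ± 0.41 and 3.09 ± 0.41. Of the 4 mitochondrial elongation factor genes, MEF2 rose by 2.49 ± 0.22 in cured and 2.22 ± 0.21 in prion cells, and MEF1 was called lower over both states, at -0.40 ± 0.15, though in neither state alone with TMM.

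No elongation factor gene was called between cured and prion cells by edgeR, which does not show that their levels were equal. In preSPO medium none of the 9 tested genes was called in cured against prion cells, where 0.93% of all genes were, a number of 59 genes that ranged from 0 to 468 when single libraries were left out. An unadjusted p under 0.05 was found for 3 of the 9 and for 1264 of all 6346 genes. The 3 were TEF4 with a log2 fold change of -0.50 ± 0.19 (SE), EFT1 with -0.59 ± 0.17 and EFT2 with -0.55 ± 0.19, whose edgeR adjusted p-values were 0.207, 0.130 and 0.170. EFT1 and EFT2 were both called by DESeq2, with adjusted p-values of 0.0211 and 0.0257, where DESeq2 called 6.71% of all genes. In TPM, EFT1 stood at 42.9 and 38.6 in cured preSPO against 61.4 and 52.7 in prion preSPO, without overlap. HEF3 had a log2 fold change of 0.08 ± 0.22 and YEF3 of -0.37 ± 0.26 there. In SPO medium none was called, where 0.0315% of all genes were, none had an unadjusted p under 0.05 and DESeq2 called none. Without the libraries labelled cured SPO replicate 1 and prion SPO replicate 2 none was called either, with log2 fold changes of -0.13 for HEF3 and 0.45 for YEF3.

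The response to the medium did not pass the test of a difference between states for any of the 9 genes, where 0.0158% of all genes did by edgeR and 2% by DESeq2. An unadjusted p under 0.05 was found for 2 of the 9 by edgeR and for 791 of all genes. For EFT1 the response in cured minus that in prion cells was 0.91 ± 0.24 (SE) on the log2 scale, with an edgeR adjusted p of 0.236 and a DESeq2 adjusted p of 0.0244. For EFT2 it was 0.90 ± 0.26, with adjusted p-values of 0.264 and 0.0163. Without the 2 libraries in doubt these values were 0.81 and 0.79, and were not called. For YEF3 the difference was 0.83 ± 0.37 and for HEF3 -0.16 ± 0.30. HEF3 made up 62.9% ± 4.12 (SD, n = 2) of the pair in cured SPO and 71.1% ± 2.86 in prion SPO, and 1.18% ± 0.441 in cured preSPO and 0.880% ± 0.334 in prion preSPO. The difference between states in the log2 ratio was -0.53 in SPO medium and 0.38 in preSPO medium, near the pooled SD of 0.43 between replicates.

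Across the 8 libraries the genes whose log2 CPM was most like that of HEF3 were SHH4, ATG39 and AGX1, each with a Pearson r of 0.999. For YEF3 they were CLU1, CDC60 and TRM7, with r of 0.996, 0.994 and 0.994, and for ANB1 ELM1, YDR524C-B and TIM8, with 0.972, 0.965 and 0.961. The 8 points are 4 groups with 2 libraries each and share the split by medium, and r was above 0.9 for 19.2% of 5670 genes with HEF3, 19.4% with YEF3 and 2.08% with ANB1. That the genes like HEF3 shared its direction between media follows from how they were picked. Log2 fold changes in cured and prion cells were 6.33 and 6.70 for SHH4, 5.59 and 5.72 for AGX1 and 2.75 and 2.80 for ATG39.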

How the data were processed

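Poly(A) RNA of 8 libraries was measured. Per the submitters' processing notes, the authors used kallisto and build R64; no source used here gives the version, index or strand setting. The deposited estimated counts were rounded to whole numbers for testing. The TPM values are the authors' deposited values. Since 6711 of 6713 target lengths are multiples of 3, lengths are coding lengths. Sequences come from the R64 RefSeq assembly, whose locus tags matched 6026 targets (89.8%).

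Tests used edgeR 4.0.16 quasi-likelihood tests in R 4.3.3 on 4 group means (4 residual degrees of freedom), with TMM scaling and filterByExpr (minimum count 10), which kept 6346 genes, and two-sided Benjamini-Hochberg adjusted p-values over them, called under 0.05. The code was tested on simulated data, drawn with 1 spread for all genes. There 61% of 2-fold changes between states were recovered in preSPO medium and 45% in SPO medium, so such changes can be missed. Shares of a pair used TPM, and their log2 ratios a pseudocount of 1. Levels in CPM used TMM library sizes, and likeness used log2 CPM (prior count 2) of genes with a mean of at least 10 CPM. Alternatives were library size scaling, no filter, DESeq2 1.42.0, limma 3.58.1 on log2(TPM + 1) or log2(TPM + 0.1), leaving out TAR1 or libraries, and a replicate block. Groups follow the labels of each sample; the series design mentions overexpression and deletion of VTS1, absent from these labels. The labels make preSPO and SPO libraries parts of one culture, but MET17 goes against this for 2 libraries, and correlations of same-numbered deviations ran from -0.049 to 0.316, so the main fit has no block. Replicates of a group differed beyond counting noise (chi-square per degree of freedom 34.4 to 159). That they are biological replicates rests on the series text alone, and p-values measure the spread between these libraries.

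The genes and lists were chosen with earlier results of these data known. All 10 genes are named in each comparison, singly or by count, as are CAM1, DYS1 and LIA1, up to 4 genes with the smallest p in each other list, and the 3 most correlated genes for HEF3, YEF3 and ANB1. The sporulation genes and the tested hypoxic genes with their regulators are also named, to show what these lists hold.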

Additional observations from a re-analysis of the deposited data

How the results depend on the processing

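HEF3, YEF3, YEL034C-A and DYS1 kept their direction and their call between media under every alternative run. The replicate block, by number or by culture, changed no count of called genes between media (6 in cured, 6 in prion and 7 over both states) or for the interaction (0). For the states the count stayed at 0 with the block by number, and the block by culture does not compare them. With the block by number, calls among all genes in cured against prion preSPO cells were 142 in place of 59. Whether numbers mark shared cultures could not be settled. Without prion SPO replicate 2, which leaves 1 library in its group, TEF1, TEF4 and EFT2 lost their calls in prion cells. Fewer of all genes were called in prion cells there too. TEF1 in cured cells was lost without cured SPO replicate 2 or either cured preSPO replicate (-0.73, -0.85 and -0.79), and TEF4 in prion cells also without prion SPO replicate 1 or prion preSPO replicate 2 (-0.74 and -0.48). EFB1 in cured cells was lost without any 1 of 5 libraries (0.43 and 0.60 without cured SPO replicate 1 and cured preSPO replicate 2) and EFT2 in prion cells without any of 6 (0.50 to 0.54). Without both libraries that go against their labels, which leaves 1 library per SPO group assumed to vary like the others, 3 genes were called in cured and 3 in prion cells. DESeq2 called 2 in cured against prion preSPO cells and 2 for the interaction, among 432 and 131 calls of all genes.

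Modest changes turned with scaling. TEF2 was -0.21 (cured) and -0.16 (prion) with library size and -0.83 and -0.60 with limma on TPM, at both pseudocounts and without a filter. TEF4 in cured cells was -0.35, -0.92, -0.94 (pseudocount 0.1) and -0.92 (no filter), and -0.055 without both doubted libraries. On TPM + 1, TPM + 0.1 and unfiltered TPM, EFB1 was -0.33 in cured and -0.36 in prion cells, EFT1 in cured cells -0.15, -0.16 and -0.15, and EFT2 in prion cells -0.10. EFB1 and EFT1 in cured and EFT2 in prion cells were not called with library size (0.30, 0.46 and 0.34), nor EFT2 in cured cells on TPM + 1 (0.43). Leaving out 1 library turned values near 0: TEF2 in prion (-0.11 to 0.13), TEF4 in cured (-0.12 to 0.21), and HEF3 between states (-0.086 to 0.22 in preSPO, -0.23 to 0.058 in SPO, interaction -0.32 to 0.0097). The cause was not tested.

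The log2 ratio of HEF3 to YEF3 (SPO minus preSPO, 7.13) was 7.67 on estimated counts and 7.62 with a pseudocount of 0.1; with YNL013C counted as HEF3, an alternative added after seeing the data, it was 7.88. That of ANB1 to the HYP2 locus (-2.58) was -3.16 and -3.15. Against HYP2 as listed (added later) the value was -1.76. HYP2 was listed at 0 in every library, so this value is the change of ANB1 alone. Depth limits ANB1, with 7 counts in 1 library.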

Other observations

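ANB1 and HYP2 belong to a set of yeast gene pairs with an aerobic and a hypoxic copy, and 4 other such pairs were measured. With TMM scaling all 4 aerobic copies were called higher in SPO medium in both states. Beside them, 1816 of all 6346 genes were called higher in cured and 1660 in prion cells. With library size and on log2(TPM + 1), 3 of the 4 were called higher in each state. On log2(TPM + 1) 546 and 681 of all 6389 genes were. CYC1, the main cytochrome c gene, stood at 240 and 204 TPM in cured SPO and 228 and 227 TPM in prion SPO, against 62.9 and 72.7 TPM in cured preSPO and 89.8 and 94.5 TPM in prion preSPO. Its hypoxic partner CYC7 stood at 85.7 and 106 TPM in cured SPO and 107 and 108 TPM in prion SPO, against 350 and 356 TPM in cured preSPO and 380 and 606 TPM in prion preSPO. CYC7 fell by 1.62 ± 0.36 (SE) on the log2 scale in prion cells by edgeR and was not called in cured cells at -0.82 ± 0.36. For subunit 5 of cytochrome oxidase, COX5A rose by 2.48 ± 0.20 and 2.07 ± 0.19 and COX5B fell by 0.98 ± 0.32 and 1.23 ± 0.32 in cured and prion cells. In both pairs the hypoxic copy had the lower level of its pair in SPO libraries, and its share was larger in preSPO than in SPO libraries. In the pair HMG1 and HMG2, for the sterol enzyme HMG-CoA reductase, HMG1 rose by 1.08 ± 0.27 and 0.91 ± 0.27 with TMM, and its hypoxic partner HMG2 rose by 0.55 ± 0.20 in cured cells with TMM, a value that was -0.40 on log2(TPM + 1), and was not called in prion cells. HMG1 was 0.072 and 0.28 on log2(TPM + 1). PET9 rose by 2.14 ± 0.19 and 1.34 ± 0.19 with TMM in cured and prion cells. AAC3, the hypoxic partner of PET9, was below 2 TPM throughout and was not called.

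A list of other hypoxic genes and their regulators did not move as one group. Its 7 tested genes were HEM13, UPC2, TIR1, OLE1, HAP1, MOT3 and ROX1. With TMM, 3 (HEM13, OLE1 and ROX1) were called higher in cured and 1 (OLE1) in prion cells, and none lower. On log2(TPM + 1), 1 was called higher and 1 lower in each state. OLE1, the fatty acid desaturase, rose by 2.60 ± 0.29 (SE) and 1.94 ± 0.28 on the log2 scale. ROX1, the repressor gene, rose by 0.81 ± 0.18 in cured cells with TMM, a value that was -0.17 on log2(TPM + 1), and was not called in prion cells. Of 10 targets of the zinc regulator Zap1, 4 were called higher and 1 lower in cured cells and 2 and 2 in prion cells with TMM. These counts were 1 and 1 and 2 and 2 with library size, and 0 and 4 and 1 and 3 on log2(TPM + 1). Beside this list and the hypoxic one, 57.2% of all genes tested were called in cured and 53.3% in prion cells with TMM. On log2(TPM + 1) the shares of all genes were 62.6% and 49.4%. The Zap1 site ACCTTNAAGGT, searched on both strands in 300 bases before the start codon, occurred in 6 of 6026 windows and in none of the 10 elongation factor genes.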
